A study of Oryza sativa Japonica Group with 6 samples.

Results

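Trehalose-6-phosphate synthases (TPS) and trehalose-6-phosphate phosphatases (TPP) were examined at 9 loci of the rice genome, chosen by their MSU locus identifiers. The RPKM table listed 19 transcript models at these 9 loci, among 66153 transcripts at 55801 loci in all. A model is written as its locus followed by its number, so that LOC_Os02g54820_2 is the second model of LOC_Os02g54820. Of the 9 loci, 6 had several models and 3 had 1 model.

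RNA was sequenced from shoots of wild-type Nipponbare seedlings in 3 groups of 2 libraries, each made from a pool of 20 plants. All seedlings were germinated on Murashige and Skoog medium and kept under continuous light. The rehydration group had been air-dried for 8 h and re-watered for 24 h, and was 11 days old at sampling. The dehydration group had been air-dried for 8 h at 10 days of age, and the control group of 10 days of age was left untreated. Rehydration and the additional day of age cannot be told apart, and the rehydrated shoots contained recovered as well as damaged leaf tissue. In such bulk samples, fewer cells of a type and less RNA per cell cannot be told apart.

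Plants make trehalose in a pathway of 2 enzymatic steps. TPS joins UDP-glucose and glucose 6-phosphate into trehalose 6-phosphate, and TPP removes the phosphate to give trehalose. Trehalose 6-phosphate is known as a signal of sucrose status that inhibits the SnRK1 kinase in growing plant tissue, and many plant TPS-like proteins show little or no synthase activity of their own. The study named LOC_Os02g54820 a trehalose-6-phosphate synthase. Its annotation described LOC_Os02g44230 as similar to a TPP and LOC_Os08g34580 as a HAD-superfamily hydrolase of subfamily IIB. The latter description does not tell whether LOC_Os08g34580 encodes a TPS or a TPP. The other 6 loci were listed among the TPS and TPP loci without a description that tells which enzyme they encode, and are given here by identifier.

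The study picked LOC_Os02g54820 from these libraries as a representative of transcripts raised by dehydration, and designed a primer pair for it. Among the 9 loci, this locus had the largest difference in summed RPKM between dehydration and control. Both primers are shown 5′ to 3′ because most of the results below turn on this locus. They were not placed on its models here, so which models they amplify is not known.
LOC_Os02g54820 forward primer: caagtactacctcgacgaca
LOC_Os02g54820 reverse primer: tcctgtaacttctgcagcta

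The sequencing depth of the 6 libraries, recovered from the steps between low RPKM values, lay between 86.2% and 100% of that of control replicate 1. Transcripts above 0 RPKM numbered 32316 and 32494 in the rehydration libraries, 29992 and 31877 in the dehydration libraries, and 32135 and 32606 in the control libraries. The labelled tissue was checked with LOC_Os11g13890, which encodes a chlorophyll a-b binding protein of the photosynthetic antenna. Its first model had 1367 and 1063 RPKM in the rehydration libraries, 34.6 and 74.0 RPKM in the dehydration libraries, and 1556 and 1252 RPKM in the control libraries. This shoot marker was thus present in all libraries. It fell with dehydration together with a second locus, LOC_Os10g35370, which the study annotated as an oxidoreductase. All 6 tested models of both loci were lower than in the control. Of these, 5 were differentially expressed transcripts (DEGs) at an adjusted p under 0.01 by limma and a fold over 2. Across all tested transcripts, 13.4% were DEGs lower after dehydration. The study had picked both loci from these libraries as representatives of transcripts lowered by dehydration. Their fall was thus known in advance and is no independent result. The part of this fall in the results below was not tested.

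Summed over the 9 loci, RPKM reached 128 and 153 in the rehydration libraries, 286 and 316 in the dehydration libraries, and 84.8 and 86.5 in the control libraries. The 3 groups did not overlap in this sum. LOC_Os02g54820 alone made up 44.5% and 41.9% of it in the rehydration libraries, 70.4% and 60.4% in the dehydration libraries, and 24.2% and 19.2% in the control libraries.

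**Figure D1:**
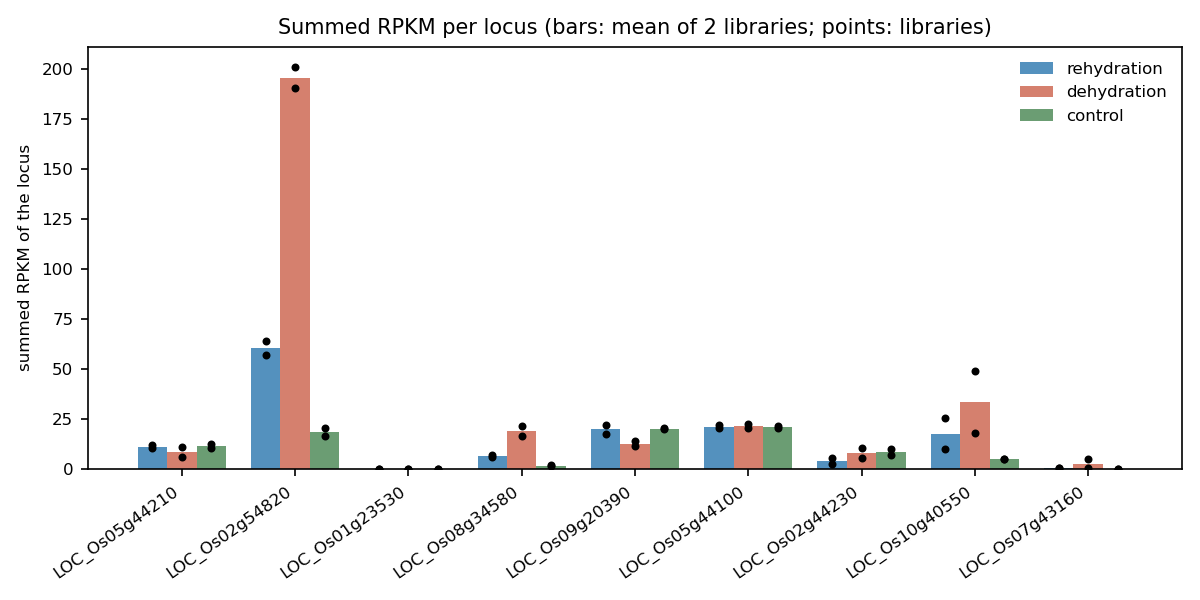
Summed RPKM of the transcript models of each of the 9 loci (y axis, RPKM) in the rehydration, dehydration and control groups, with bars for the mean of 2 libraries and points for single libraries. LOC_Os02g54820 stood at 60.5, 196 and 18.6 RPKM in these 3 groups, while LOC_Os05g44100 stood at 21.1, 21.3 and 20.9 RPKM.

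The order of the loci differed among the groups. In the rehydration libraries LOC_Os02g54820 came first with 60.5 ± 4.93 RPKM (SD, n = 2), followed by LOC_Os05g44100, LOC_Os09g20390, LOC_Os10g40550 and LOC_Os05g44210 at means between 11.1 and 21.1 RPKM, each overlapping with its neighbour. LOC_Os08g34580, LOC_Os02g44230, LOC_Os07g43160 and LOC_Os01g23530 came below them with no overlap between neighbours. In the dehydration libraries LOC_Os02g54820 again came first, with 196 ± 7.47 RPKM (SD, n = 2), and LOC_Os10g40550, LOC_Os05g44100 and LOC_Os08g34580 followed with overlapping values around means of 33.5, 21.3 and 18.8 RPKM. In the control libraries LOC_Os05g44100 was the highest at 20.9 ± 0.463 RPKM (SD, n = 2). LOC_Os09g20390 at 20.02 ± 0.473 and LOC_Os02g54820 at 18.6 ± 2.77 RPKM (SD, n = 2 each) came next and overlapped with each other. LOC_Os01g23530 and LOC_Os07g43160 were the lowest 2 loci in every group.

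**Figure D2:**
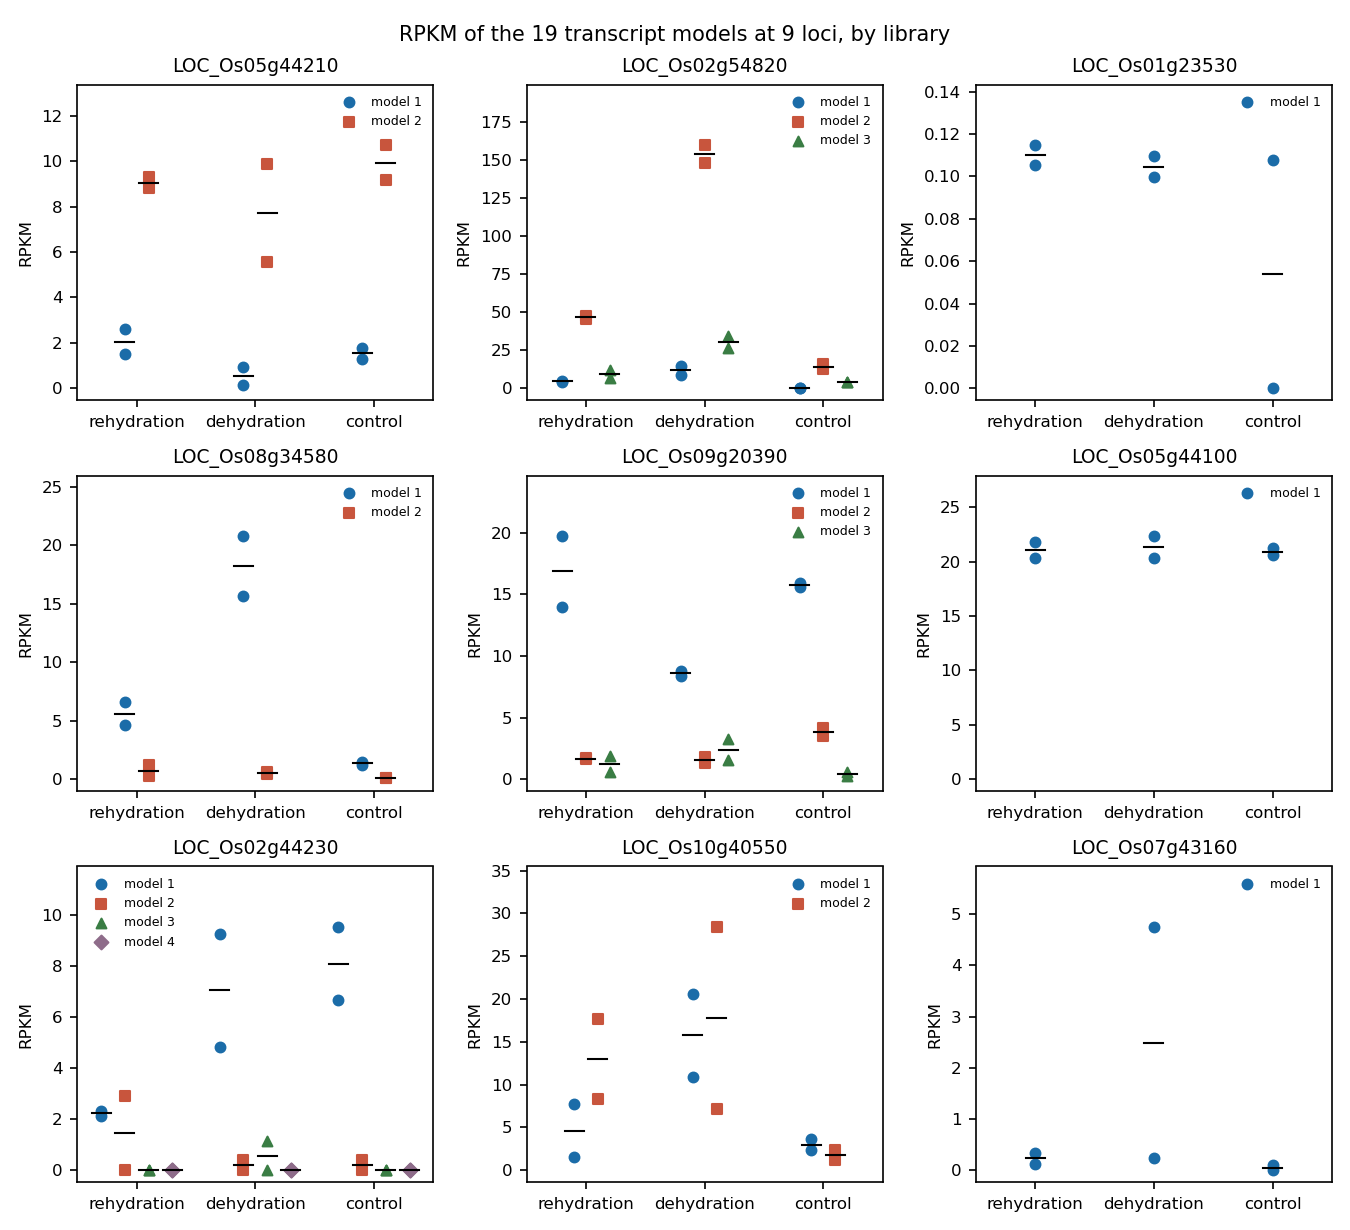
RPKM of the 19 transcript models (y axis, RPKM, with its own scale for each locus) in the 2 libraries of the rehydration, dehydration and control groups, with points for libraries and short lines for group means. The models of LOC_Os02g54820 and the first model of LOC_Os08g34580 were highest in both dehydration libraries, and LOC_Os10g40550 and LOC_Os07g43160 differed widely between the 2 dehydration libraries.

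Differences were tested for transcripts with at least 1 RPKM in at least 2 of the 6 libraries, which left 26790 transcripts in all, 13 of them at 7 of the 9 loci. The fit used log2(RPKM + 1) in limma, and this scale understates the fold of low transcripts. A DEG had a Benjamini-Hochberg adjusted p under 0.01 over all tested transcripts and a fold over 2. Of the 13 transcripts, 11 were also at 1 RPKM or more in both control libraries, while LOC_Os02g54820_1 and LOC_Os09g20390_3 passed only through libraries where they were high. Counts of DEGs and of groups without overlap, and medians, are therefore also given over the 11, chosen after seeing the data. Counts at an unadjusted p are given over the 13 only and can include LOC_Os02g54820_1 and LOC_Os09g20390_3. With 2 libraries against 2, an exact permutation test cannot give a p below 0.33, so the limma fit draws on the spread of all transcripts. Its p-values set each difference between groups against the spread between these pools, moderated by that of all transcripts.

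Dehydration against control gave 4 DEGs among the 13 tested transcripts, all higher after dehydration and all at LOC_Os02g54820 or LOC_Os08g34580, and 3 of them were among the 11. The study had picked LOC_Os02g54820 from these libraries as raised by dehydration. Its models are thus no independent evidence of direction, and they can share reads. Across all tested transcripts, 22.3% were DEGs in either direction and 8.97% were DEGs higher after dehydration. By limma, 0 of the 13 were DEGs lower after dehydration, against 13.4% of all. At an unadjusted p under 0.05, 7 of the 13 were higher (19.5% of all) and 2 were lower (32.5% of all). The median log2 fold change was 0.03 over the 11 transcripts, 1.19 over the 13, where it was the value of LOC_Os09g20390_3, and -0.30 over all tested transcripts. Under a median-ratio scaling between libraries the median over all became -0.05, so that fold changes of this comparison carry a shift of about this difference between scalings. The libraries of the dehydration and control groups did not overlap for 7 of the 13 transcripts that were higher (28% of all) and 3 that were lower (45.8% of all), and for 5 and 3 of the 11.

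Rehydration against control gave 0 DEGs among the 13 by limma, where 0.847% of all tested transcripts were DEGs (0.776% higher and 0.0709% lower), and 7 of the 13 had an unadjusted p under 0.05. Of these 7, 5 were higher (12.1% of all) and 2 lower (8.72% of all) after rehydration, and for the same counts of transcripts the 2 groups did not overlap (26.9% of all higher and 26% lower). Over the 11 alone, the groups did not overlap for 4 that were higher and 2 that were lower. The median log2 fold change was 0.25 over the 11 transcripts, 0.26 over the 13 and -0.0010 over all. Rehydration against dehydration gave 1 DEG, LOC_Os02g54820_2, which was lower, where 5.33% of all tested transcripts were DEGs and 1.01% were DEGs lower after rehydration. At an unadjusted p under 0.05, 6 of the 13 were lower, this DEG included (11.8% of all). None of the 13 was a DEG higher after rehydration than after dehydration by limma, against 4.32% of all, and 2 of them were higher at an unadjusted p under 0.05 (26.3% of all). The rehydration and dehydration libraries did not overlap for 2 transcripts that were higher (43% of all) and 6 that were lower (22.7% of all), and for 2 and 5 of the 11. The median log2 fold change was -0.23 over the 11 transcripts, -0.61 over the 13, where it was again the value of LOC_Os09g20390_3, and 0.24 over all. The 3 comparisons share their libraries and are given side by side only.

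**Figure D3:**
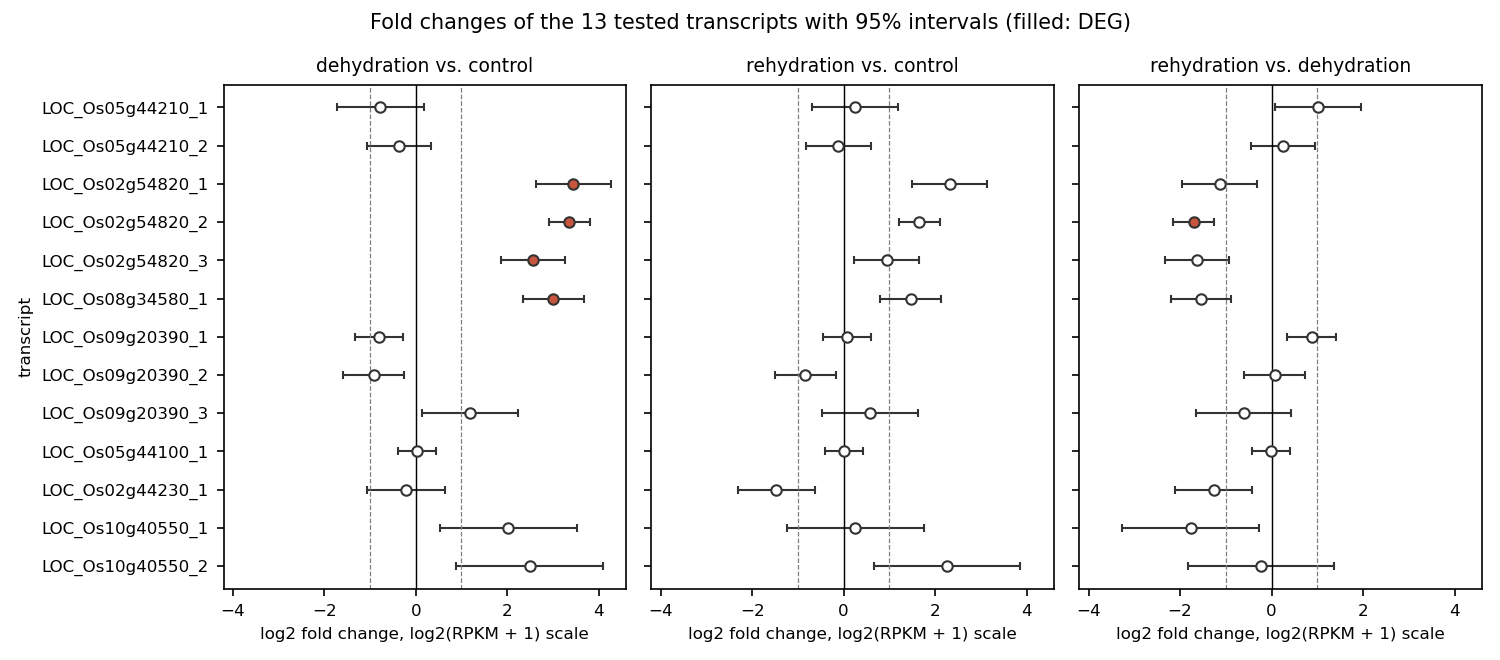
Log2 fold changes on the log2(RPKM + 1) scale (x axis) of the 13 tested transcripts in the 3 comparisons, with 95% intervals from limma, filled points for DEGs and dashed lines at a fold of 2. All 4 DEGs of dehydration against control lie above 2.5, and the 1 DEG of rehydration against dehydration lies at -1.70.

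LOC_Os02g54820, the trehalose-6-phosphate synthase, was the most abundant of the 9 loci after dehydration. Its second model, LOC_Os02g54820_2, had 45.4 and 47.7 RPKM in the rehydration libraries, 159.6 and 148 RPKM in the dehydration libraries, and 16.0 and 12.4 RPKM in the control libraries. Both dehydration libraries were the highest, both control libraries the lowest, and the 3 groups did not overlap. Between 221 and 2853 reads lay behind each of these values. The transcript rose with dehydration to a mean RPKM 10.8 times that of the control, with a log2 fold change of 3.36 ± 0.19 (SE, limma adjusted p = 0.000394). By that fold change it ranked 486th of the 26790 tested transcripts. It fell with rehydration relative to dehydration, with a log2 fold change of -1.70 ± 0.19 (SE, limma adjusted p = 0.00521). Its log2 fold change after rehydration relative to the control was 1.66 ± 0.19 (SE), with a limma adjusted p of 0.0104 that just missed the threshold. The call of dehydration against control was kept with each of the 6 libraries left out in turn (limma adjusted p between 0.00203 and 0.00799), whereas that of rehydration against dehydration was lost without each of them (limma adjusted p between 0.0128 and 0.0581), with log2 fold changes between -1.76 and -1.65. In 5 of these 6 fits no transcript of the whole table was a DEG in that comparison by limma, and without dehydration replicate 2 there were 951, against 1427 with all libraries.

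The other models of LOC_Os02g54820 were less abundant. LOC_Os02g54820_3 had 6.88 and 11.9 RPKM in the rehydration libraries, 26.7 and 34.0 RPKM in the dehydration libraries, and 4.30 and 4.23 RPKM in the control libraries. LOC_Os02g54820_1 had 4.83 and 4.38 RPKM in the rehydration libraries, 14.8 and 8.53 RPKM in the dehydration libraries, and 0.266 and 0 RPKM in the control libraries. For both models the dehydration libraries were the highest and the groups did not overlap. The control values of LOC_Os02g54820_1 rested on 6 reads in replicate 1 and 0 reads in replicate 2, where 3 reads would amount to 0.145 RPKM, against 302 and 191 reads in the dehydration libraries.

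Both models rose with dehydration, by log2 fold changes of 2.56 ± 0.29 for LOC_Os02g54820_3 and 3.45 ± 0.34 for LOC_Os02g54820_1 (SE, limma adjusted p = 0.00170 and 0.00115). The value of LOC_Os02g54820_1, which passed the filter through its treated libraries, depends on the pseudocount and was 4.25 with a pseudocount of 0.5 and 5.89 with 0.1. After rehydration their log2 fold changes relative to dehydration were -1.62 and -1.13 (limma adjusted p = 0.0152 and 0.0598), and neither passed the test. Relative to the control they were 0.94 and 2.31 after rehydration (limma adjusted p = 0.137 and 0.0210). The dehydration call of LOC_Os02g54820_1 was lost without control replicate 1 or 2 (limma adjusted p = 0.0139 and 0.0140, log2 fold changes 3.62 and 3.28), and that of LOC_Os02g54820_3 was lost without either control or either dehydration library, at limma adjusted p between 0.0108 and 0.0188 and log2 fold changes between 2.39 and 2.73. The DEGs of the whole table in this comparison numbered 318 and 597 without control replicate 1 or 2, and 1885 and 3694 without dehydration replicate 1 or 2, against 5987 with all libraries.

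The shares of the 3 models in the summed RPKM of LOC_Os02g54820 were described without a test. The second model held 79.5% and 74.5% in the rehydration libraries, 79.4% and 77.7% in the dehydration libraries, and 77.8% and 74.6% in the control libraries. Its share thus stayed within a narrow range while the level of the locus differed by a ratio of 10.5 between dehydration and control. The first model held 8.46% and 6.83% in the rehydration libraries, 7.37% and 4.48% in the dehydration libraries, and 1.30% and 0% in the control libraries, with no overlap between treated and control libraries. The third model held between 12.1% and 18.6% in the 4 treated libraries, and 20.9% and 25.4% in the control libraries. Models of a locus share most of their sequence, so these shares depend on how reads were assigned to models.

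**Figure D4:**
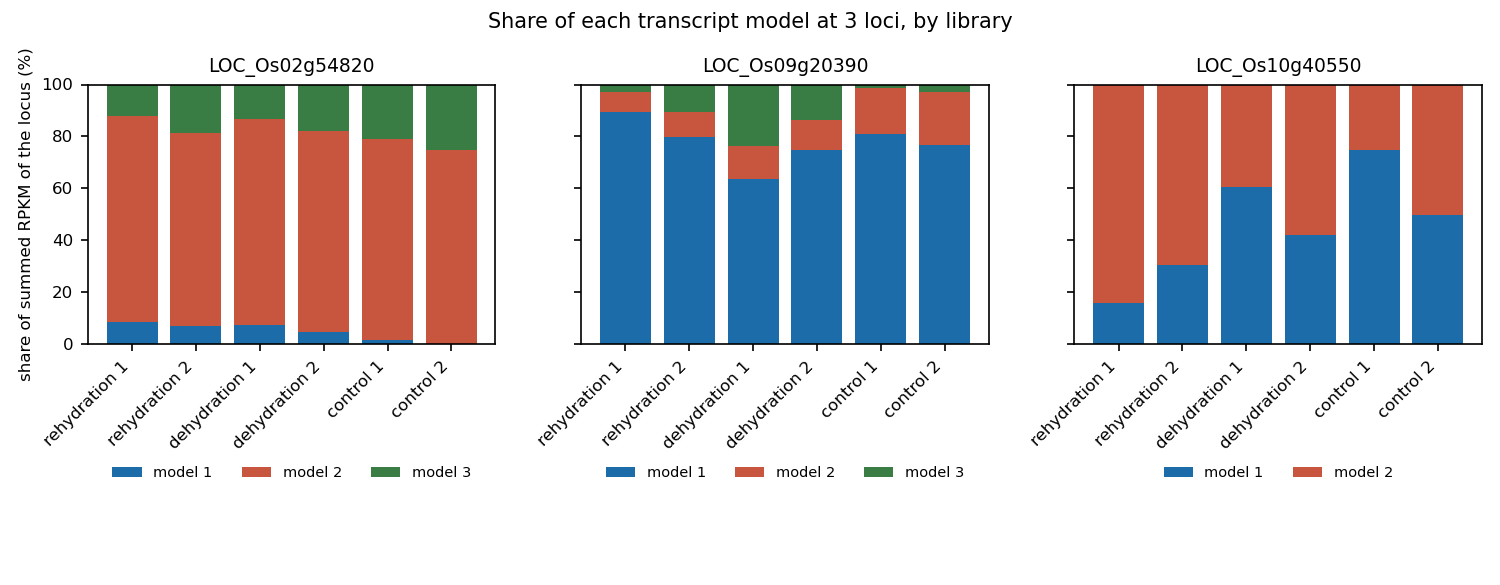
Share of each transcript model in the summed RPKM of its locus (y axis, percent) in each of the 6 libraries, for LOC_Os02g54820, LOC_Os09g20390 and LOC_Os10g40550. The second model of LOC_Os02g54820 held 74.5% to 79.5% in all 6 libraries, whereas the second model of LOC_Os10g40550 ranged from 25.4% in a control library to 84.4% in a rehydration library.

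With the models of each locus summed, 20816 loci were tested. Of these, 7124 were DEGs for dehydration against control (2558 higher), 609 for rehydration against control (500 higher) and 3036 for rehydration against dehydration (613 lower). Among the 26790 tested transcripts the DEGs of these comparisons numbered 5987, 227 and 1427. LOC_Os02g54820 was then a DEG in all 3 comparisons, with a log2 fold change of 3.34 when dehydration was set against the control, 1.66 when rehydration was set against the control and -1.68 between rehydration and dehydration (limma adjusted p = 6.549e-05, 0.00325 and 0.00166). Its summed RPKM was 57.1 and 64.0 in the rehydration libraries, 201 and 190.5 in the dehydration libraries, and 20.5 and 16.6 in the control libraries. After rehydration the locus was thus lower than after dehydration and still 3.26 times the control mean.

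LOC_Os08g34580, described only as a HAD-superfamily hydrolase, showed the second group of called differences. LOC_Os08g34580_1 had 4.66 and 6.58 RPKM in the rehydration libraries, 20.8 and 15.7 RPKM in the dehydration libraries, and 1.26 and 1.48 RPKM in the control libraries. The dehydration libraries were the highest, the control libraries the lowest, and no groups overlapped. The transcript rose with dehydration to a mean RPKM 13.3 times that of the control, with a log2 fold change of 3.01 ± 0.27 (SE, limma adjusted p = 0.000948). After rehydration its log2 fold change was -1.54 relative to dehydration and 1.47 relative to the control (limma adjusted p = 0.0150 and 0.0400), neither of which passed the test. The rise with dehydration was lost as a call without control replicate 1 or 2, at limma adjusted p of 0.0142 and 0.0118 and log2 fold changes of 2.94 and 3.08, and 23 and 25 reads lay behind the control values.

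LOC_Os08g34580_2 was not tested, with 1.26 and 0.241 RPKM in the rehydration libraries, 0.460 and 0.627 RPKM in the dehydration libraries, and 0.0693 and 0.151 RPKM in the control libraries. It overlapped between rehydration and dehydration and was lowest in the control libraries, where it rested on 1 and 2 reads. With both models summed, LOC_Os08g34580 was a DEG in all 3 comparisons, with a log2 fold change of 2.99 between dehydration and control, 1.57 between rehydration and control and -1.42 between rehydration and dehydration (limma adjusted p = 0.000161, 0.00905 and 0.00505). The locus stood at 6.37 ± 0.645, 18.8 ± 3.46 and 1.48 ± 0.220 RPKM after rehydration, after dehydration and in the control (SD, n = 2 each).

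The first model of LOC_Os02g44230, a locus described as similar to a TPP, was lower after rehydration than in both other groups without passing the test. LOC_Os02g44230_1 had 2.14 and 2.33 RPKM in the rehydration libraries, 4.85 and 9.27 RPKM in the dehydration libraries, and 6.66 and 9.53 RPKM in the control libraries. Both rehydration libraries lay below all others, and the dehydration and control libraries overlapped. Its log2 fold change was -1.47 for rehydration against control (95% interval -2.32 to -0.63, limma adjusted p = 0.0706) and -1.26 for rehydration against dehydration (limma adjusted p = 0.0488). For dehydration against control it was -0.21 (95% interval -1.06 to 0.63), and the sign of this value turned under median-ratio scaling and under quantile normalization, at 0.09 and 0.08.

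The other 3 models of LOC_Os02g44230 were not tested. LOC_Os02g44230_2 was seen in rehydration replicate 2 at 2.91 RPKM (27 reads), in dehydration replicate 1 at 0.411 RPKM and in control replicate 2 at 0.404 RPKM (4 reads each), and was listed at 0 in the other 3 libraries. It made up 55.5% of the locus in rehydration replicate 2, so that the summed locus had 5.24 RPKM there and 2.14 RPKM in rehydration replicate 1. Dehydration replicate 1 was at 5.26 RPKM. The summed locus had log2 fold changes of -1.05 for rehydration against control and -0.93 for rehydration against dehydration (limma adjusted p = 0.180 and 0.129). LOC_Os02g44230_3 had 1.13 RPKM in dehydration replicate 2 and 0 elsewhere. With only 1 library above 0, the reads behind that value could not be recovered. LOC_Os02g44230_4 was listed at 0 in all 6 libraries.

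LOC_Os10g40550 was higher after dehydration than in the control in both models, with a wide spread between libraries. LOC_Os10g40550_2 had 8.34 and 17.6 RPKM in the rehydration libraries, 7.10 and 28.4 RPKM in the dehydration libraries, and 1.23 and 2.39 RPKM in the control libraries. LOC_Os10g40550_1 had 1.54 and 7.72 RPKM in the rehydration libraries, 10.9 and 20.6 RPKM in the dehydration libraries, and 3.61 and 2.36 RPKM in the control libraries. In both treated groups replicate 2 was the higher one for both models. The dehydration and control libraries did not overlap in either model.

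Neither model passed the test for dehydration against control, with log2 fold changes of 2.49 ± 0.66 for LOC_Os10g40550_2 and 2.03 ± 0.62 for LOC_Os10g40550_1 (SE, limma adjusted p = 0.0255 and 0.0402). The value of LOC_Os10g40550_2 was 3.42 without dehydration replicate 1 and 1.56 without dehydration replicate 2. Summed, the locus had 9.88 and 25.4 RPKM in the rehydration libraries, 18.0 and 49.0 RPKM in the dehydration libraries, and 4.84 and 4.75 RPKM in the control libraries. At this level it was a DEG higher after dehydration, with a log2 fold change of 2.41 ± 0.53 (SE, limma adjusted p = 0.00775). Rehydration against control gave a log2 fold change of 1.55 and rehydration against dehydration one of -0.86 for the summed locus (limma adjusted p = 0.123 and 0.240). The second model held 84.4% and 69.5% of the locus in the rehydration libraries, 39.4% and 58.0% in the dehydration libraries, and 25.4% and 50.4% in the control libraries, with the rehydration libraries above all others.

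LOC_Os09g20390 was among the more abundant loci in the control, and its models differed in direction. LOC_Os09g20390_1 had 19.7 and 14.0 RPKM in the rehydration libraries, 8.79 and 8.41 RPKM in the dehydration libraries, and 15.9 and 15.6 RPKM in the control libraries. Both dehydration libraries were the lowest, and the rehydration libraries lay on either side of the control libraries. The log2 fold change was -0.80 for dehydration against control and 0.88 for rehydration against dehydration (limma adjusted p = 0.0286 and 0.0376), and both were under the fold of 2.

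LOC_Os09g20390_2 had 1.71 and 1.65 RPKM in the rehydration libraries, 1.78 and 1.33 RPKM in the dehydration libraries, and 3.50 and 4.12 RPKM in the control libraries. Here all treated libraries lay below both control libraries, with log2 fold changes of -0.84 after rehydration and -0.91 after dehydration relative to the control (limma adjusted p = 0.153 and 0.0385). LOC_Os09g20390_3 had 0.608 and 1.87 RPKM in the rehydration libraries, 3.26 and 1.53 RPKM in the dehydration libraries, and 0.285 and 0.620 RPKM in the control libraries. It was higher in both dehydration libraries than in the control libraries, with a log2 fold change of 1.19 (limma adjusted p = 0.0676), on 3 and 6 reads in the control. The third model held 23.6% and 13.6% of the locus in the dehydration libraries, against 1.45% and 3.05% in the control libraries. None of the 3 models was a DEG in any comparison.

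LOC_Os05g44100, with 1 model, was the steadiest of the tested transcripts on the listed values. It had 20.3 and 21.8 RPKM in the rehydration libraries, 20.3 and 22.3 RPKM in the dehydration libraries, and 21.2 and 20.6 RPKM in the control libraries. The 3 groups overlapped, on 396 to 478 reads in each library. The log2 fold change of dehydration against control was 0.03 (95% interval -0.38 to 0.44, limma adjusted p = 0.908) and became 0.35 under median-ratio scaling. Relative to the median of all tested transcripts, it was 0.33.

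LOC_Os05g44210 had 2 models. LOC_Os05g44210_2 had 8.82 and 9.29 RPKM in the rehydration libraries, 5.56 and 9.90 RPKM in the dehydration libraries, and 9.16 and 10.7 RPKM in the control libraries. Dehydration replicate 1 was the lowest library, and all groups overlapped with one another. LOC_Os05g44210_1 had 1.51 and 2.60 RPKM in the rehydration libraries, 0.130 and 0.949 RPKM in the dehydration libraries, and 1.30 and 1.80 RPKM in the control libraries. Both dehydration libraries were below all others, on 1 and 8 reads. Dehydration differed from the control by log2 fold changes of -0.37 (95% interval -1.07 to 0.34) for the second model and -0.77 (95% interval -1.72 to 0.17) for the first, and neither model was a DEG in any comparison.

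The remaining 2 loci were near the limit of detection and were not tested. LOC_Os07g43160_1 had 0.343 and 0.124 RPKM in the rehydration libraries, 0.237 and 4.74 RPKM in the dehydration libraries, and 0.107 and 0 RPKM in the control libraries. Its level in dehydration replicate 2 rested on 44 reads, against 2 reads in dehydration replicate 1 and at most 3 reads in the other libraries. LOC_Os01g23530_1 was covered by 1 read in each of 5 libraries and by 0 reads in control replicate 1, at values of up to 0.115 RPKM. At this depth no difference between groups was detectable for LOC_Os01g23530_1.

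Another 4 loci annotated as trehalose synthase or TPS were set beside these. Of the 4, 3 were taken here from the study's list of transcripts raised by dehydration, so they are no independent evidence of direction. Of their 7 tested transcripts, 4 were higher and 1 lower after dehydration at an unadjusted p under 0.05 (19.5% and 32.5% of all). By limma, 0 were DEGs higher after dehydration (8.97% of all) and 1 was a DEG lower (13.4% of all). LOC_Os03g12360_1 was that transcript, with 12.3 and 10.9 RPKM in the rehydration libraries, 4.10 and 4.93 RPKM in the dehydration libraries, and 11.4 and 15.0 RPKM in the control libraries. It fell with dehydration by 1.36 on the log2 scale (limma adjusted p = 0.00585), with no overlap between the 2 groups. The other model of that locus, LOC_Os03g12360_2, had 0.646 and 0.804 RPKM in the rehydration libraries, 3.31 and 3.83 RPKM in the dehydration libraries, and 0.823 and 0 RPKM in the control libraries. Its log2 fold change of 1.76 for dehydration against control missed the threshold (limma adjusted p = 0.0119). The median log2 fold change of the 7 transcripts was 1.01 for dehydration against control and 0.86 over the 5 that were at 1 RPKM or more in both control libraries, beside -0.30 over all tested transcripts. By limma, 0 of the 7 were DEGs between rehydration and control (0.847% of all) or between rehydration and dehydration (5.33% of all). At an unadjusted p under 0.05, 1 was higher after rehydration than in the control (12.1% of all). Relative to dehydration, 1 was higher and 2 were lower after rehydration (26.3% and 11.8% of all).

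The wider sugar pathway was followed at 15 loci of sucrose, starch and sugar metabolism, taken from the genes that the study annotated as hormone-responsive, so that they can move as hormone-responsive genes do. Of 23 tested transcripts, 13 at 10 loci were DEGs higher after dehydration than in the control by limma (8.97% of all) and 0 were DEGs lower (13.4% of all). At an unadjusted p under 0.05, 15 were higher and 2 lower (19.5% and 32.5% of all). The median log2 fold change of the 23 was 1.95. Of the 23, 8 were below 1 RPKM in a control library and passed the filter through other libraries, and among the other 15 there were 9 DEGs higher and 0 lower, with a median of 2.08. LOC_Os03g22120_3, a sucrose synthase that links sucrose to the UDP-glucose used by TPS, had 92.4 and 75.1 RPKM in the rehydration libraries, 417 and 303 RPKM in the dehydration libraries, and 29.5 and 29.8 RPKM in the control libraries. It rose with dehydration by 3.54 on the log2 scale and fell by 2.08 with rehydration relative to dehydration (limma adjusted p = 0.000436 and 0.00517). By limma, 0 of the 23 transcripts were DEGs between rehydration and control (0.847% of all), with a median log2 fold change of 0.95. At an unadjusted p under 0.05, 12 were higher and 2 lower (12.1% and 8.72% of all). The DEGs between rehydration and dehydration were 2 models of LOC_Os03g22120, both lower after rehydration (1.01% of all), and 0 were DEGs higher (4.32% of all). Relative to dehydration, 12 of the 23 were lower and 1 higher after rehydration at an unadjusted p under 0.05 (11.8% and 26.3% of all). Their median log2 fold change in this comparison was -0.91, beside 0.24 over all tested transcripts.

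The transcripts most like LOC_Os02g54820_2 over the 6 libraries were looked up among 1396 tested transcripts of other loci. These were the ones described in the study's list of hormone-responsive genes, so other transcripts of the table could not appear. The highest Pearson correlations of log2(RPKM + 1) were 0.999 for LOC_Os03g17800_1, a phosphatidylinositol transfer protein, and 0.998 for LOC_Os12g13910_1, a conserved hypothetical protein. LOC_Os07g48630_1 of the ethylene insensitive 3 family and LOC_Os01g58194_1 with a thioredoxin domain followed at 0.998 each, and LOC_Os06g07030_1, similar to a TINY-like AP2 protein, at 0.997. The 6 libraries fall into 3 groups, so these values mainly describe a shared order of dehydration above rehydration above control. LOC_Os03g17800_1, for example, had 32.7 and 32.8 RPKM in the rehydration libraries, 64.3 and 62.0 RPKM in the dehydration libraries, and 16.1 and 14.0 RPKM in the control libraries.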

How the data were processed

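The authors sequenced stranded mRNA libraries as paired ends on a MiSeq, mapped the cleaned reads to the rice genome (MSU annotation 7.0) with 1 mismatch allowed in CLC Genomics Workbench 20.0.4 and deposited RPKM values per transcript model. How reads matching several models or loci were counted is not given in the sources used here, so values of similar models and family members can share reads. The authors tested with edgeR. RPKM are no counts, so limma 3.58.1 in R 4.3.3 was used on log2(RPKM + 1) at the same thresholds (adjusted p under 0.01, fold over 2), with 3 groups of 2 libraries in 1 fit, a trend on abundance and 3 residual degrees of freedom. Transcripts with 1 RPKM or more in at least 2 libraries were tested. The procedure was also run on data simulated with the spread of this fit and no shift of the whole table. That run is not used as support for the calls. Locus values are sums of the models' RPKM. Reads are the smallest whole numbers that the steps of low values allow (tolerance 0.03 of a step), so a common factor cannot be seen. The search returned values for 18 of 19 models. For LOC_Os02g44230_3, above 0 in 1 library only, it gives 1 read by construction, which was not used. They served to describe depth, and a limit of 3 reads covers counting error only. Python 3.11.15 was used elsewhere.

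All models of the 9 loci are named, with counts and at most 4 named transcripts for the lists of other trehalose genes and of sugar genes. Named as well are the 2 loci of the tissue check and the 5 transcripts most correlated with LOC_Os02g54820_2 among those described in the study's hormone-responsive list. Members and lists were chosen with earlier results of these data known. Alternatives were pseudocounts of 0.1 and 0.5, no filter, median-ratio scaling, quantile normalization, no trend, the replicate number as a block, summed loci, an adjusted p under 0.05, and leaving out each library. Of 39387 genes in the RefSeq gene table, 0 matched a locus of the 9, so promoter and protein sequences were not used here.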

Additional observations from a re-analysis of the deposited data

How the results depend on the processing

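The count of 4 DEGs for dehydration against control ranged from 1 to 4 with each library left out in turn, being 1 without either control library, 3 without either dehydration library and 4 without either rehydration library. Over all transcripts the DEGs of this comparison numbered 5987, and 318 to 3694 with a library left out. Leaving out a library leaves a group with 1 library, whose spread is then assumed to be that of the other groups. The count stayed within a factor of 1.5 under the other alternatives. For rehydration against control, 0 DEGs became 2 loci with models summed and 3 transcripts at an adjusted p under 0.05. The count stayed at 0 under the other alternatives that kept all libraries. Over the whole table, 227 DEGs became 609 loci with models summed and 1316 transcripts at an adjusted p under 0.05. For rehydration against dehydration, 1 DEG became 0 without the filter, 0 without the trend and 0 without any 1 of the 6 libraries, and became 2 with median-ratio scaling, 2 loci with models summed and 4 at an adjusted p under 0.05. Over all transcripts the DEGs of that comparison numbered 1427, but 10 without the filter, 565 without the trend, and 0 in 5 of the 6 fits that left out a library. They numbered 1209 with median-ratio scaling, 3036 loci with models summed and 5008 at an adjusted p under 0.05. The cause of these changes was not tested. Over the 11 members at 1 RPKM or more in both control libraries, an alternative chosen after seeing the data, the counts were 3, 0 and 1. No called fold change turned its sign under any of these alternatives. Samples with the same replicate number deviated together only weakly (r = 0.058 between dehydration and control, 0.130 between rehydration and control and 0.197 between rehydration and dehydration, across 26790 transcripts), and the labels do not pair them. With the replicate number as a block, the counts were 5, 0 and 1 in these 3 comparisons, and LOC_Os10g40550_2 was the transcript added (limma adjusted p = 0.00419). Median-ratio scaling moved the share of higher transcripts among all DEGs of dehydration against control to 54.3%, from 40.1% as listed, and of rehydration against dehydration to 62.4%, from 81.0%. Depth limits LOC_Os01g23530, LOC_Os07g43160 and the minor models of LOC_Os02g44230, LOC_Os08g34580 and LOC_Os09g20390.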
